A study of Mus musculus with 2 samples.

Results

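The miRNA genes from Mir379 to Mir410 form the cluster of Mirg, a maternally expressed noncoding RNA gene of the imprinted Dlk1-Dio3 domain on mouse chromosome 12. The rule for the members used position alone. They are the genes annotated as miRNA on the plus strand between these ends for which both count tables held a row, which gave 33 members out of 1973 miRNA genes. Another 5 annotated genes of the stretch, Mir299a, Mir380, Mir376b, Mir376a and Mir409, were not analysed here. The samples were 2 microRNA-seq libraries of 1 group, each made from total RNA of neural tube, the embryonic tissue that gives rise to brain and spinal cord. The embryos were of mouse strain B6NCrl at embryonic day 14.5, and the labels name no treatment and no altered allele. Replicate 1 came from pup 1 of dam 1 and replicate 2 from pup 1 of dam 2. The labels describe a single neural tube per sample and also state the sex as a pool of male and female, and the files used here do not settle which holds. With 1 library per litter, differences between the libraries cannot be told apart from differences between the litters.

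A miRNA is cut from a hairpin in a longer primary transcript, and its bases 2 to 8, the seed, pair with target mRNAs. In the Dlk1-Dio3 domain the maternal chromosome produces a chain of noncoding RNAs, Meg3, the transcript antisense to Rtl1, Rian and Mirg, that carry miRNAs and small nucleolar RNAs, while the paternal chromosome expresses the protein-coding genes Dlk1, Rtl1 and Dio3. The Mir379 to Mir410 cluster is found in placental mammals and is best known from brain, where its members act in neurite growth and at synapses, and mice that lack it have metabolic defects after birth. Allele of origin was not measured in these libraries.

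The mature sequences show how the members relate to each other. RefSeq sequences on GRCm38.p6 matched 32 of the 33 members (all but Gm27379), with 59 mature sequences and 54 different seeds. Mir376c, Mir453, Mir485, Mir487b and Mir539 entered with 1 mature sequence each, and the counts of seeds cover the 59 sequences used. Among these, 5 seeds were shared by mature sequences of different members, each by 1 pair of genes, so 9 members had a seed in common with another. These pairs are shown because they are the members that could act on the same seed matches, with bases 2 to 8 in capitals.
mmu-miR-379-3p: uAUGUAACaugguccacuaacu
mmu-miR-411-3p: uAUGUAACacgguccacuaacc
mmu-miR-379-5p: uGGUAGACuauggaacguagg
mmu-miR-1193-5p: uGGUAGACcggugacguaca
mmu-miR-494-5p: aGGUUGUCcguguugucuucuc
mmu-miR-410-5p: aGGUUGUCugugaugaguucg
mmu-miR-1197-5p: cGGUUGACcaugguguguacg
mmu-miR-758-5p: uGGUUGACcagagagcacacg
mmu-miR-453: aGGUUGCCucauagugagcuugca
mmu-miR-496a-5p: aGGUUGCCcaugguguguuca

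Sequence kinship went further than the seeds. The longest run shared by mature sequences of 2 members was 16 bases, in the 3p arms of the neighbours Mir300 and Mir381, whose seeds differ. Runs of 13 bases were shared by members farther apart, the 3p arms of Mir758 and Mir412 and the 5p arms of Mir758 and Mir134, and runs of 12 bases by the 5p arms of Mir381 and Mir377 and the 3p arms of the adjacent genes Mir543 and Mir495. The longest run and 1 run of 12 bases at the 3′ end are shown. Capitals mark the shared run.
mmu-miR-300-3p: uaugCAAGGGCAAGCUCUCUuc
mmu-miR-381-3p: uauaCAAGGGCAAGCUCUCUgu
mmu-miR-543-3p: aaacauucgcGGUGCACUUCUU
mmu-miR-495-3p: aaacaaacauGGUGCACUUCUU

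Short words recurred in the members' arms. The word GGUU, searched on the mature strand, was present in 12 of 30 member 5p arms (40%) and in 12.05% of the 697 other mouse 5p arms of the table. In 3p arms GGUC was present in 8 of 28 members (28.57%) against 6.97% of 703 other 3p arms, and ACGG in 6 of 28 (21.43%) against 2.418%. On the opposite arms the members' shares were 7.143% for GGUU, 13.33% for GGUC and 0% for ACGG. These 3 words were picked after looking at the sequences. They can overlap each other by bases, and related hairpins are not independent, so the shares are descriptions. At the level of 18 bases, the run used here to mark a copy, the 59 mature sequences were compared with miRNA hairpins. Among these only Mir376c matched the hairpin of another gene, Mir376b, and reads that fit both would be counted for neither. Gm27379, arms without a sequence (such as the 3p arm of Mir487b) and the genome outside miRNA hairpins were not compared.

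In 3 of the 5 pairs both genes were counted well, and in the other 2 pairs 1 gene was close to 0. A count here is a read on the sense strand of the whole hairpin gene, so the 2 arms were not told apart. Levels are counts per 1000000 of the sense counts on miRNA genes (CPM), given as the mean ± SD of both libraries (n = 2). Mir411 stood at 3729 ± 513 CPM and its partner Mir379 at 1659 ± 417 CPM, and Mir1193, the other partner of Mir379, at 320 ± 113 CPM. Mir494 and Mir410 were close in level, at 106 ± 21.7 and 136 ± 37.0 CPM. These 3 pairs thus differed in how balanced they were, with the pair of Mir494 and Mir410 overlapping between libraries. In the last pairs, Mir1197 had 1 and 3 counts where Mir758 had 91 and 164, and Mir453 had 0 in both libraries where Mir496a had 444 and 859.

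Depth and tissue were checked first. The libraries held 3172235 and 3671915 sense counts on miRNA genes, so a gene at 0 could still have had 0.946 CPM in the first library and 0.817 CPM in the second (3 counts, counting error only). Of the 11 neural marker genes fixed for the check, 11 had counts and 8 had at least 10 in both libraries, with a summed level of 16840 and 15532 CPM. The neuronal genes Mir137 and Mir128-1 were among those counted, whereas Mir9-2 (5 and 4 counts) and 2 of the 3 copies of Mir124a fell short. Reads that fit several copies enter no gene count. Markers of other cell types were present too, and some were uneven. Summed CPM was 1197 and 4884 for 4 mesenchymal genes (4 of 4 detected), 2109 and 15050 for 3 genes of the sensory Mir183 cluster (3 of 3 detected), and 8443 and 17271 for the endothelial gene Mir126a. Erythroid genes (2 of 2 detected) summed to 76.6 and 107 CPM, leukocyte genes (3 of 3) to 125 and 232 CPM, and the liver gene Mir122 stood at 43.5 and 35.9 CPM. Of 3 measured muscle genes 1 was detected, Mir206, and Mir133a-1 was at 0. Mir1a-2 was not analysed. The limit on reads that fit several copies holds for these genes too, so a count near 0 does not show that muscle RNA was absent. In bulk tissue, fewer cells of a type and less RNA per cell cannot be told apart.

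The cluster was broadly expressed and steeply uneven. It took 148438 counts in replicate 1, or 4.68% of all sense miRNA counts (exact 95% interval 4.66 to 4.70), and 165184 counts in replicate 2, or 4.50% (4.48 to 4.52). The mean share was 4.59% ± 0.128 (SD, n = 2). At least 10 counts in both libraries, the limit for calling a gene detected, were reached by 29 of 33 members, where 16.7% of all 1973 genes reached it. Detected members ran from 17.96 to 18013 CPM, a span of 1003-fold, with a median of 287 CPM against 170 CPM over all 329 detected genes. No read was counted on the other strand of any of the 33 members.

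**Figure D1:**
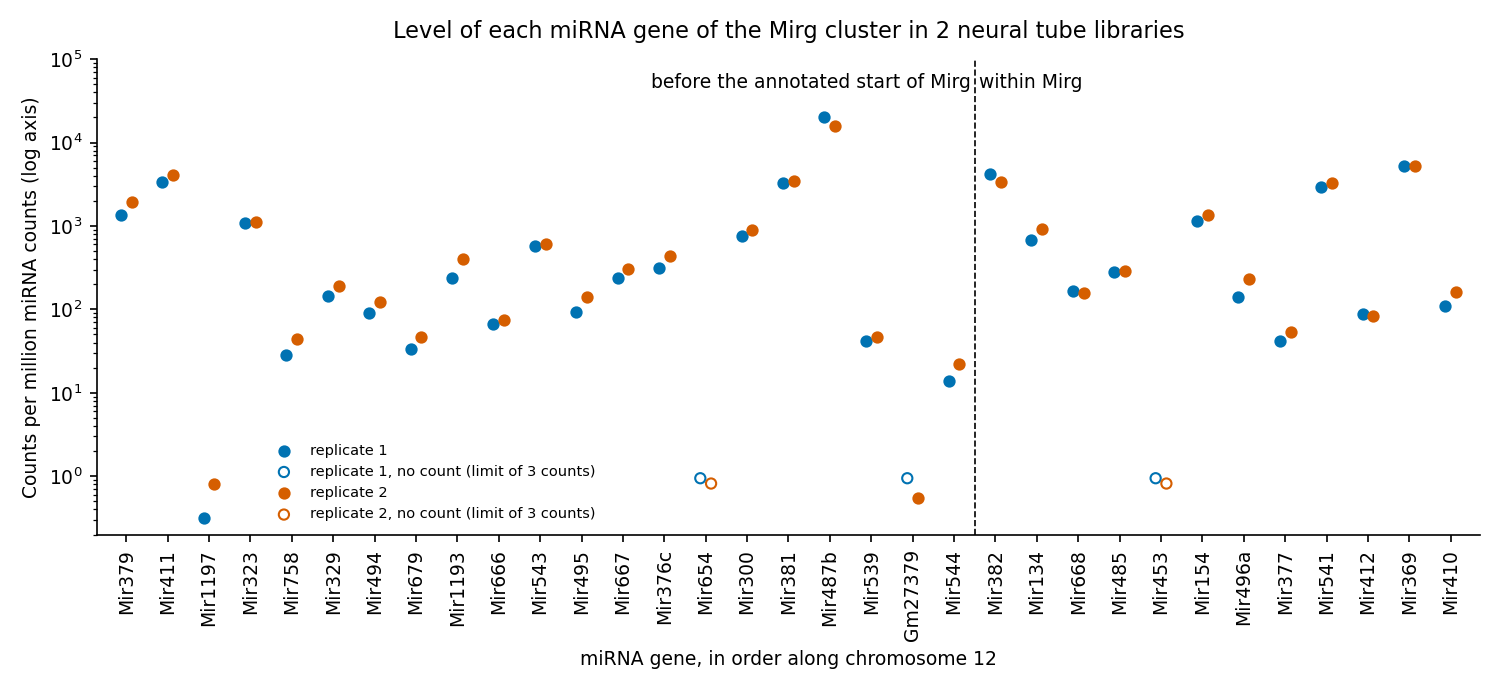
Level of each member in CPM (log axis), in order along chromosome 12, with replicate 1 in blue and replicate 2 in orange; open circles mark a count of 0, drawn at the limit of 3 counts. High and low genes are mixed along the cluster, with Mir487b near 18013 CPM on average and its next neighbour Mir539 near 44.4 CPM. The libraries of each detected gene lie within 2-fold of each other.

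Mir487b was far above the other members. It had 63668 counts in replicate 1 and 58586 in replicate 2, or 20070 and 15955 CPM, and ranked number 8 of all 1973 genes by mean level. The gene lies at chr12:109727333-109727414 (GRCm38, plus strand). It held 42.9% of the cluster's counts in replicate 1 and 35.5% in replicate 2, and its mean of 18013 ± 2910 CPM was 3.42 times that of the next member. The sequence used for it was the 5p arm, whose seed was in no other mature sequence used for the members. The sequence source held no 3p arm for this gene, so a 3p seed was not compared. The counts are not assigned to an arm.
mmu-miR-487b-5p: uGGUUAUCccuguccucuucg

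A group of 5 genes followed, from 5268 down to 3083 CPM. Mir369, whose 3p arm is known to repress N-cadherin in the developing cortex, had 16734 and 19321 counts. At 5275 and 5262 CPM its libraries nearly coincided when scaled by total counts (5268 ± 9.41 CPM), but not under the scaling used for the ratios below. Mir382 had 13269 and 12255 counts (3760 ± 598 CPM). Both lie inside Mirg, on sequence that overlaps an exon of at least 1 Mirg transcript. Mir411 had 10677 and 15023 counts (3729 ± 513 CPM). Mir381, which acts in dendrite growth together with Mir134 and Mir329, had 10302 and 12592 counts (3338 ± 128 CPM). Mir541, in an intron of Mirg, had 9306 and 11871 counts (3083 ± 212 CPM). The arms of the 4 highest of these genes are shown, with the seed in capitals, because after Mir487b they hold most of the remaining counts of the cluster; which arm gave the reads was not resolved.
mmu-miR-369-5p: aGAUCGACcguguuauauucgc
mmu-miR-369-3p: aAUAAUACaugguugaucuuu
mmu-miR-382-5p: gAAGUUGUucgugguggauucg
mmu-miR-382-3p: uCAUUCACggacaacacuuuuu
mmu-miR-411-5p: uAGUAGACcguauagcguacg
mmu-miR-381-5p: aGCGAGGUugcccuuuguauauu
mmu-miR-381-3p: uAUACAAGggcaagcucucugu
The 3p arm of Mir411 stands among the seed pairs above.

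The 5 highest members of each library held 77.2% of the cluster in replicate 1 and 71.3% in replicate 2 (74.3% ± 4.20), and the 10 highest held 91.6% ± 1.66. In all, 9 members had a mean of at least 1000 CPM, 13 lay between 100 and 1000 CPM, 7 detected members lay under 100 CPM, and 4 were not detected. Among all miRNA genes, 6 members were within the 50 most abundant and 11 within the 100 most abundant.

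Several members with a described role in neurons stood in the middle of the range. Mir379 (4327 and 7172 counts, 1659 ± 417 CPM), Mir154 (3607 and 5031 counts, 1254 ± 165 CPM) and Mir323 (3402 and 4086 counts, 1093 ± 28.5 CPM) completed the genes above 1000 CPM. Mir300 had 2374 and 3295 counts, or 823 ± 105 CPM. Mir134, a brain miRNA gene whose product limits the size of dendritic spines by repressing Limk1, had 2172 and 3390 counts, or 804 ± 169 CPM, and its libraries overlapped those of Mir300. Mir543, which like Mir369 and Mir496a represses N-cadherin in neural progenitors, stood at 593 ± 15.3 CPM with 1846 and 2216 counts, above Mir496a at 187 ± 66.4 CPM. Mir376c, from a family whose precursors are edited by adenosine deaminases, had 981 and 1623 counts (376 ± 93.9 CPM), Mir1193 had 762 and 1467 (320 ± 113 CPM) and Mir485, a regulator of synapse number, 898 and 1071 (287 ± 6.08 CPM). Mir329, named above with Mir381, stood at 168 ± 32.2 CPM.

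The remaining detected members were lower. Mir667, Mir668, Mir410, Mir495 and Mir494 had means from 269 CPM (Mir667) down to 106 CPM (Mir494). Mir412 (85.2 ± 3.01 CPM), Mir666, Mir377, Mir539, Mir679 and Mir758 fell between 85.2 and 36.7 CPM. Mir544 was the lowest detected member, with 44 and 81 counts, or 17.96 ± 5.79 CPM. Of the 4 members below the limit, Mir1197 had 1 and 3 counts, Gm27379 had 0 and 2, and Mir654 and Mir453 had 0 in both libraries.

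The first 2 places in the order of the levels were separate, and from the third on many neighbours overlapped. Of the 28 pairs of neighbours in the ranking of detected members, 13 had libraries that did not overlap, among them Mir487b over Mir369 and Mir369 over Mir382. In the other 15 pairs the libraries overlapped, so the levels of these neighbours were not separate across libraries. Both genes of a pair were counted in the same libraries, so such overlap does not show that they were equal. Of these 15, 7 had the same order within both libraries, such as Mir379 over Mir154 and Mir376c over Mir1193, and 8 swapped, such as Mir382 and Mir411. Mir382, Mir411 and Mir381 formed an overlapping run, as did Mir496a, Mir329, Mir668, Mir410, Mir495 and Mir494. Ranks differed by at most 3 places between the libraries, and 17 of 29 detected members held the same rank in both.

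Rank correlations of level with position, length and base composition were all near 0. The cluster spans 34736 bases, chr12:109709060-109743795, and the members' hairpin genes lie a median of 632 bases apart, with gaps from 20 to 4368 bases. Across the 29 detected members, Spearman's rho of mean level was 0.04 with the order along the cluster, 0.05 with hairpin length and -0.10 with the GC content of the mature sequences. These are descriptions across genes of the same 2 libraries and not independent points. Neighbours could differ widely: Mir487b had 406 times the mean level of Mir539, which starts 714 bases after the end of Mir487b, and Mir369 had 61.8 times that of Mir412, which ends 49 bases before it.

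By annotation, 12 members lie within Mirg (chr12:109729764-109749460) and 21 lie before its annotated start. Of the 12, 8 overlap an exon of at least 1 Mirg transcript and 4 lie in introns. The 21 genes before Mirg, 18 of them detected, took 3.08% ± 0.133 of all miRNA counts with a median of 294 CPM, and the 12 within it, 11 of them detected, took 1.51% ± 0.00480 with a median of 287 CPM. The medians on both sides of the annotated start thus lay close together, while the larger share of the first stretch held Mir487b.

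Between the libraries of the 2 litters the members stayed close. Ratios are log2 of replicate 1 over replicate 2, scaled with TMM (the trimmed mean of M-values), with exact 95% binomial intervals that cover counting error only. A gene was called with an adjusted p below 0.05 in a two-sided exact binomial test (Benjamini-Hochberg over 360 genes) and at least a 2-fold ratio. By this rule 0 of 29 tested members were called, where 10.3% of all 360 genes were (3.89% higher in replicate 1 and 6.39% higher in replicate 2). At a 1.5-fold minimum the count was again 0 of 29, against 19.7% of all genes. With no fold minimum, 19 of 29 members had an adjusted p below 0.05 in the exact binomial test, against 56.7% of all genes, and 20 of 29 had an unadjusted p below 0.05, against 59.2% of all genes. All 29 tested members lay within 1.5-fold, a range that held 79.6% of the 329 detected genes. Scaled by total counts, which lowers every ratio by 0.21, 24 of 29 members and 75.4% of detected genes lay within it. The test compares 2 libraries and says nothing of the spread between litters.

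**Figure D2:**
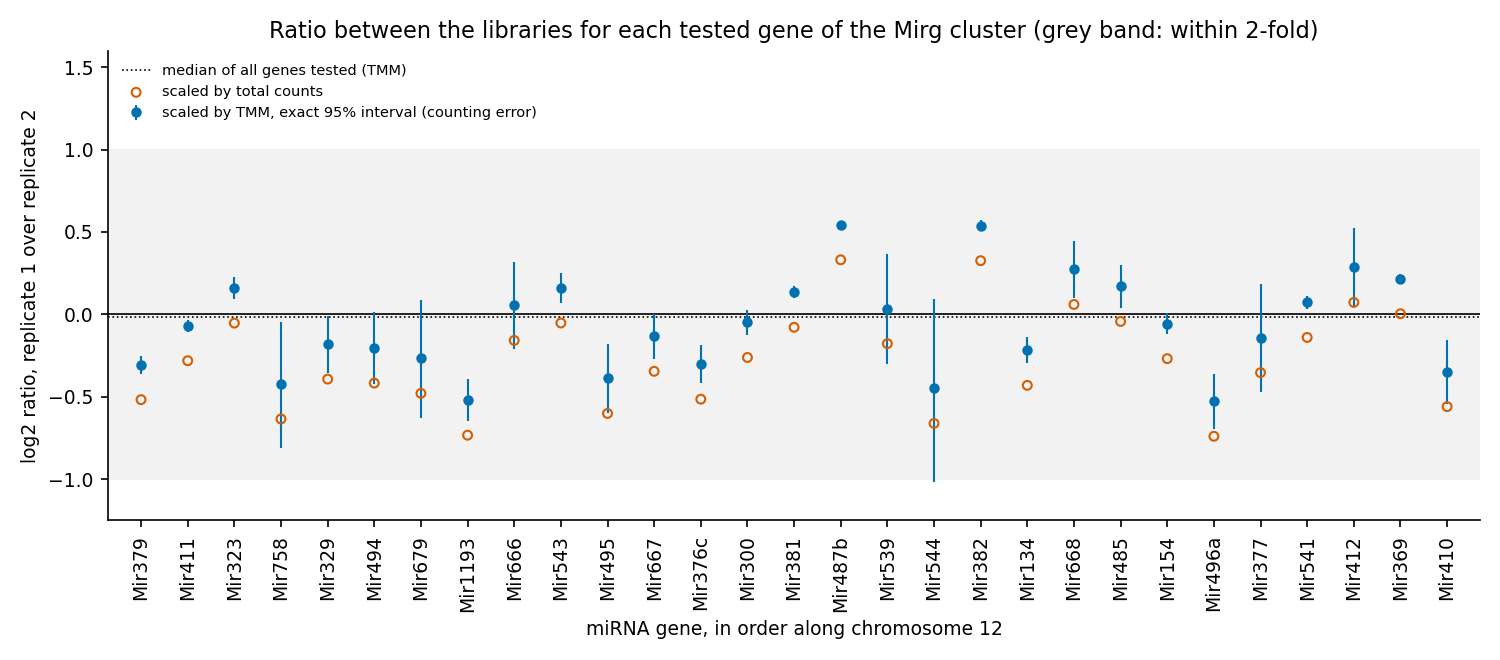
Log2 ratio of replicate 1 over replicate 2 for the 29 tested members in order along the chromosome: blue points with exact 95% binomial intervals are scaled by TMM, open orange points by total counts, the dotted line is the median of all 360 genes tested and the grey band marks ratios within 2-fold. Mir487b at 0.54 and Mir382 at 0.54 stand highest and Mir496a at -0.53 lowest, and all points lie in the band.

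The ends of that range are described next, as the 3 highest and 3 lowest ratios among members with at least 100 counts over both libraries. Mir487b had a log2 ratio of 0.54 (95% interval 0.53 to 0.56) and Mir382 one of 0.54 (0.50 to 0.57), so both were higher in replicate 1 under either scaling (0.33 and 0.33 with total counts). Mir412 followed at 0.29 (0.04 to 0.52). At the other end, Mir496a (444 and 859 counts) had a ratio of -0.53 (-0.70 to -0.36), Mir1193 had -0.52 (-0.65 to -0.39) and Mir544, with few counts, -0.45 (-1.02 to 0.09). These genes were picked as the extremes, so their distance from each other is a description, and the intervals do not hold the spread between libraries of 1 litter.

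The members were split in direction, and the split depended on the scaling. Ratios were below 0 in 17 of 29 members (51.4% of all 360 genes were) and above 0 in 12, and with total counts the split was 24 and 5, where 71.4% of all genes were below 0. The median ratio of the members was -0.069, against -0.019 for all genes tested, and with total counts these were -0.28 and -0.23. The ratio of the summed counts had the opposite sign, at 0.27 (0.26 to 0.28). The same sum over all genes but the members was 0.21 under this scaling. Without Mir487b the sum was 0.093, and without Mir487b, Mir382 and Mir369 it was -0.030. With total counts these sums were 0.057, -0.12 and -0.24, so with total counts the direction of the sum rests on Mir487b. Mir369 itself had a ratio of 0.22 (0.19 to 0.25) with TMM and 0.0037 with total counts. The near equality of its libraries in CPM thus depended on the scaling. Across the 29 members Spearman's rho between ratio and level was 0.46. Ratio and level come from the same counts of the same 2 libraries, so this is a description. The rho over all genes was not taken. The mesenchymal and sensory marker sums were lower in replicate 1, with log2 ratios of -1.82 and -2.62. The ratio was -0.82 for the endothelial gene, -0.68 for the leukocyte sum, -0.27 for the erythroid sum, 0.49 for the liver gene and 0.33 for the neural sum, to be read against 0.21 for the sum over all genes. Genes within a list did not always move together. Of the leukocyte genes, Mir223 was called at -2.14, while Mir150 was at -0.10 and Mir155 at -0.09. Of the neural genes, Mir128-1 and Mir128-2 were called at 1.18 and 1.13, and Mir138-1 was the one detected gene below 0, at -0.47. The part of these markers in the ratios of the members was not tested.

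**Figure D3:**
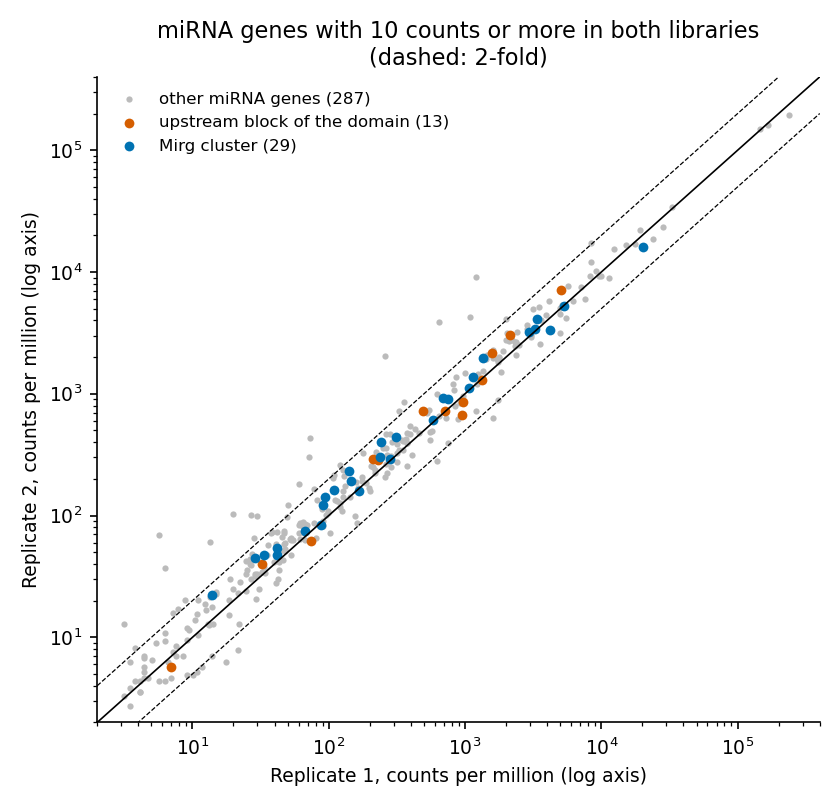
CPM in replicate 1 against replicate 2 (both axes log) for the 329 detected miRNA genes: 29 members in blue, 13 genes of the upstream block of the same domain in orange and all others in grey, with dashed lines at 2-fold. All blue points lie between the dashed lines, and the highest is Mir487b.

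The miRNA genes upstream in the same imprinted domain offered the closest comparison. This block runs from Meg3 to the start of the cluster and includes the genes antisense to Rtl1, whose miRNAs direct cleavage of the Rtl1 mRNA. Of 19 measured genes, 13 were detected (Mir136 was not analysed here), and together they took 1.38% of counts in replicate 1 and 1.73% in replicate 2 (1.56% ± 0.246). Mir127 led the block with 16102 and 26264 counts (6114 ± 1468 CPM), followed by Mir431 at 2597 ± 628, Mir434 at 1878 ± 410 and Mir433 at 1314 ± 22.2 CPM. No gene of the block was called (0 of 13), where 10.3% of all 360 genes were. With so few genes, 0 called lies near that share. An unadjusted p below 0.05 in the exact binomial test was reached by 10 of 13, against the 59.2% of all genes given above. The block's median ratio was -0.077.

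The cluster outweighed the upstream block in both libraries, by 3.38 times in replicate 1 and 2.60 times in replicate 2. The log2 difference between these quotients was 0.38 (95% interval 0.36 to 0.40, counting error), and without Mir487b it was 0.20 (0.18 to 0.23). No scaling enters a quotient of counts within a library. With 1 library per litter the difference has no replicate check.

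Steep spread of counts among genes was also present in other miRNA clusters. In the cluster of Mir17hg on chromosome 14, a host gene linked to cell proliferation, 6 of 6 genes were detected, from Mir17 at 10296 ± 2605 CPM down to Mir19b-1 at 7.78 ± 2.09 CPM. In the Sfmbt2 cluster on chromosome 2, a large rodent cluster rich in placenta, 9 of 107 genes were detected, from Mir467e at 878 ± 53.3 CPM down to Mir669h at 7.02 ± 2.998 CPM. The highest detected gene stood 1003-fold over the lowest in the Mirg cluster, 966-fold in the upstream block, 1323-fold in Mir17hg and 125-fold in Sfmbt2. In Sfmbt2, 80 of 107 genes had no count. Reads that fit several genes enter no gene count, and shared sequence was looked for in the Mirg members alone. Low counts in the other clusters, and the spans set by them, may thus reflect copies as well as low levels, which was not tested. The ratio of the summed counts was -0.36 for Mir17hg, whose genes were all lower in replicate 1 with total counts.

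**Figure D4:**
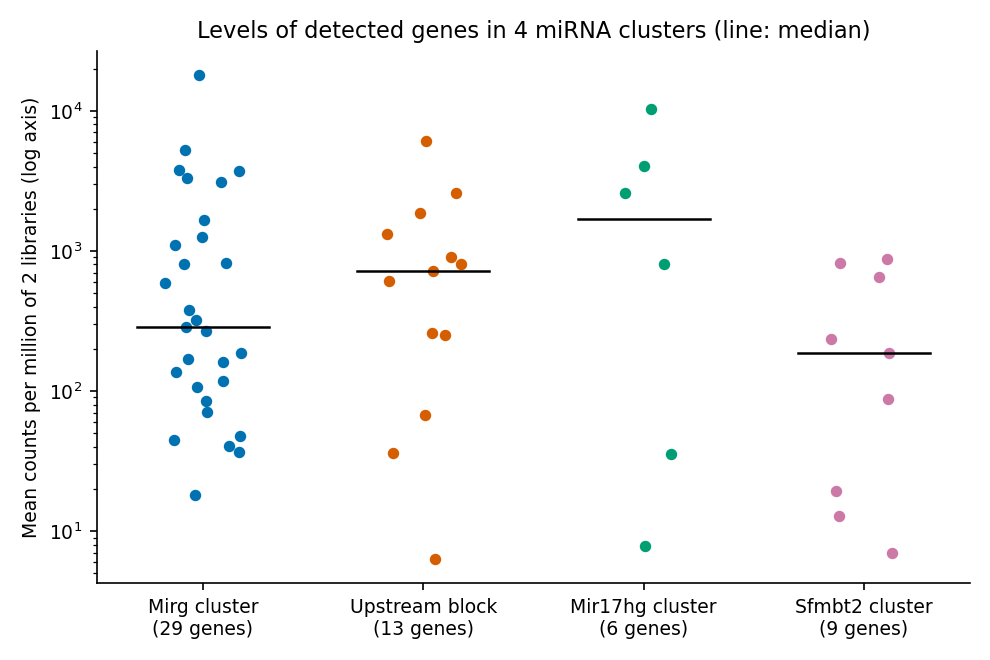
Mean CPM of 2 libraries (log axis) for each detected gene of the Mirg cluster (29), the upstream block (13), the Mir17hg cluster (6) and the Sfmbt2 cluster (9), with a line at the median. The medians are 287, 719, 1701 and 186 CPM, and the Mirg cluster holds the highest single gene, Mir487b.

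Genes outside the members also carried some of their seeds. This held for 11 of the 54 seeds, and for several of them the outside gene had 0 counts or was not analysed here. The most abundant outside gene was Mir1983 on chromosome 13, with 5482 and 7070 counts (1827 CPM on average), which shares a seed with the 3p arm of Mir412 at 85.2 CPM. Mir370, in the upstream block, shares a seed between its 5p arm and the 3p arm of Mir1193, and stood at 911 CPM (3078 and 3125 counts) against 320 CPM. In both cases the outside gene was above the member. These are levels of whole hairpin genes, so the amount of the arm with the shared seed was not measured. Mir329 shares the seed of its 3p arm with Mir362 on the X chromosome, which had 133 and 267 counts (57.3 CPM on average) against 168 CPM for Mir329.
mmu-miR-329-3p: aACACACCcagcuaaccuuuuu
The 3p arm of Mir410 shares its seed with genes of the Mir344 family on chromosome 7, of which Mir344e had 23 and 28 counts. Mir377 shares a seed on its 5p arm with Mir672, on the X chromosome, which at 626 and 622 counts (183 CPM) was above Mir377 at 47.8 ± 8.29 CPM.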

How the data were processed

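MicroRNA-seq of 2 neural tube libraries (1 group) was analysed from the deposited tables of raw read counts per miRNA gene, 1 per library. Per the text notes deposited with the files, these counts derive from alignments to mm10 with annotation M4. No source used here names the aligner, trimming or filters. The sense-strand column was used; the 4 rows that name no gene stayed out of totals, and reads at several positions, 32.4% and 33.3% of reads, enter no gene count. Genes were located in GENCODE M21 (GRCm38, the assembly of mm10) by Ensembl identifier. Sequences came from RefSeq (GRCm38.p6).

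Members and lists were chosen with earlier results of these data known. CPM used total sense counts; ratios used TMM sizes (edgeR 4.0.16, R 4.3.3) and a prior count of 0.5. Genes with at least 10 counts in 1 library were compared between libraries with scipy's exact binomial test (two-sided, scipy 1.17.1), Benjamini-Hochberg adjusted over 360 genes; 1 library per dam leaves no residual degrees of freedom for edgeR's quasi-likelihood test. The procedure was tested on simulated counts with counting error only, which cannot show how it behaves with differences between litters. No molecular identifiers are stated, so intervals cover counting error only. Named in full were the 15 most abundant members and the 3 highest and 3 lowest ratios among members with at least 100 counts over both libraries; from the upstream block the 4 most abundant genes; and from each comparison cluster the highest and lowest detected gene. Genes named beyond this rule were chosen after their values were seen. Alternatives covered scaling, filters, strand, fold minimum, prior count, the total and each library left out. Python 3.11.15, numpy 2.4.6, pandas 2.3.3 and matplotlib 3.10.9 were used.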

Additional observations from a re-analysis of the deposited data

Results flagged for a closer look

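Reads on the other strand of a gene were outside the comparisons. In the Mirg cluster and the upstream block, Mir337 was the one gene above the limit of 3 counts there, with 4 counts in replicate 2 against 2667 on its sense strand.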

How the results depend on the processing

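The count of detected members (27 to 30) did not change by more than 1.5 times. The count of called members stayed at 0 under each scaling, filter, strand and fold minimum tried. Of all 360 genes, 10.3% were called by the main rule and 19.7% at a 1.5-fold minimum. The share over all genes is not given here for the other settings, so a 0 there has no background to be read against. The share of the upstream block was 1.54% with reads on either strand, a change within its SD. With 1 library left out, that share was 1.38% to 1.73%, and the share of the cluster was 4.50% to 4.68%. The 5 highest members then held 71.3% to 77.2% of the cluster, and detected members numbered 29 each time. With 2 libraries, a share with 1 left out is that of the other library. It always lies within the SD of the mean, so it is no check of stability. The share of the cluster was 9.75% of a total without the 3 highest genes and 2.79% without Mir487b, and the 5 highest of the remaining members held 68.9%. The median log2 ratio was -0.28 with total counts. The ratio of the sum was 0.057 with total counts, 0.29 with RLE size factors and 0.093 without Mir487b. With total counts, ratios turned below 0 for Mir381 (-0.079), Mir541 (-0.14), Mir323 (-0.053), Mir543 (-0.052) and Mir485 (-0.043), and also for Mir666 (-0.16) and Mir539 (-0.18), since that scaling lowers every ratio by the same amount. Leaving out Mir487b was chosen after the data were seen. No paired analysis was possible because the samples form 1 group. Depth limits members under 100 CPM, whose intervals are wide, and 2 libraries limit every SD.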
